A study of Mus musculus with 8 samples.

Results

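Elastin (Eln), the Wnt modulator Dkk2 and 8 further genes, Adamts16, Mamdc2, Tslp, Asb11, decorin (Dcn), lumican (Lum), matrix Gla protein (Mgp) and fibronectin (Fn1), were examined in brain cells sorted for CD11b, the integrin alpha chain carried by microglia and other myeloid cells. Members were all non-control probes whose gene name on the array equalled one of these 10 symbols, which gave 18 of 56599 probes and 10 of 22509 genes tested. The members were selected on their measured difference between LPS and saline on these same arrays, so that difference is given below as a description and without a test. The list was drawn up under the working name of strongly fallen stromal genes, and the values bear this out only in part: 9 of the 10 were lower after lipopolysaccharide (LPS), but fibronectin was higher, and Dcn and Mgp were no further down than many other genes.

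All animals were male C57BL/6N mice 7 days old, and brains were taken 24 h after saline or after LPS, the glycolipid that coats Gram-negative bacteria. Each tube held the brains of 2 mice given the same injection, and CD11b+ cells were taken from it with magnetic beads, with 4 tubes per treatment and 1 array per tube. Pooling hides the spread between single animals, so SDs and standard errors (SE) measure the spread between pools. A bead fraction can hold cells other than myeloid ones, and in such bulk RNA fewer cells of a type and less RNA per cell cannot be told apart.

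Elastic fibres are built from secreted tropoelastin that is laid on fibrillin microfibrils with the help of fibulins and latent TGF-beta binding proteins and is then crosslinked by lysyl oxidases. Decorin and lumican are small leucine-rich proteoglycans that bind collagen fibrils, and fibronectin is a dimeric glycoprotein that cells assemble into fibrils through integrins. In the brain these matrix genes are known mainly from fibroblasts of the meninges and from cells of the vessel wall, while fibronectin is also made by macrophages and endothelium.

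Values are log2 of the background-subtracted signal minus the 75th percentile of the same array, so 0 is the level of that percentile and 1 unit is a doubling. Differences are LPS minus saline ± SE from limma with n = 4 arrays per group, and arrays are listed as replicates 1 to 4 of a treatment. Of all 22509 genes, 49.3% passed the limma test at a Benjamini-Hochberg adjusted p of 0.05 (21.5% lower and 27.8% higher after LPS), and the median difference was 0.02. Groups did not overlap in 44.7% of genes, 18.9% of all being lower and 25.8% higher after LPS. All 10 members were past the threshold and without overlap, which follows from how they were chosen. Arrays differed in brightness, with a median signal of 15.5 to 21.5 after saline and 11.7 to 17.3 after LPS, and among the LPS arrays replicate 3 was the brightest. That array also stood apart for most of these genes, so values without it are given beside the others.

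Elastin, the core protein of elastic fibres, was read by a pair of probes. The brighter one matched chr5:135178554-135178613 of mm9 on the minus strand and the other chr5:135179129-135179188, upstream of it in the transcript. Their first 30 bases, shown because the elastin result rests on them, were:
Eln, brighter probe: ggggagctatttcttcaggagaaaattcat
Eln, other probe: ataccggaagccttgacgatggatttggtg

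After saline Eln was at -0.59, -0.39, 1.09 and -0.04 in replicates 1 to 4, and after LPS it was at -3.06, -3.23, -1.76 and -2.40. The saline arrays all lay above the LPS arrays, with saline 3 well above the other saline arrays and LPS 3 highest within LPS. The difference was -2.63 ± 0.43, a 6.19-fold lower signal, and -2.91 without LPS 3. The other probe gave -2.87 ± 0.49 and was well above background on all 8 arrays too.

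Lumican, a keratan sulphate proteoglycan that spaces collagen fibrils, was at -0.32, -0.61, 0.02 and -0.05 after saline and at -2.69, -2.30, -1.14 and -1.81 after LPS. Again all saline arrays lay above all LPS arrays, and LPS 3 was the nearest to them. The difference was -1.75 ± 0.32, or -2.03 without LPS 3.

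Decorin, the dermatan sulphate proteoglycan that binds TGF-beta, was at 3.58, 3.01, 3.76 and 3.32 after saline and at 1.73, 1.96, 2.84 and 2.43 after LPS. Matrix Gla protein, an inhibitor of calcification in vessel walls and cartilage, was at 3.46, 2.94, 3.99 and 3.80 after saline and at 2.00, 2.27, 2.89 and 2.73 after LPS. For both genes the groups were close to touching, with a gap of 0.17 for Dcn and 0.05 for Mgp between saline 2 and LPS 3. The differences were -1.18 ± 0.26 for Dcn (-1.38 without LPS 3) and -1.08 ± 0.27 for Mgp (-1.22 without LPS 3). From the most negative difference upward, Dcn was in place 993 and Mgp in place 1380 of the 22509 genes, and 5.75% of all genes were called at least 2-fold lower.

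Dkk2, a secreted ligand of the Wnt co-receptors Lrp5 and Lrp6 that blocks or, in some settings, raises Wnt signalling, was in place 7. Its only probe lay at chr3:131842357-131842416 of mm9 on the plus strand. The first 30 bases of the probe were:
Dkk2: tcagagtgatgatgtcatcagaagtttata

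Dkk2 was at -0.10, -1.14, -1.75 and -0.62 after saline and at -4.35, -4.86, -2.87 and -4.58 after LPS. Here saline 3 was the lowest saline array, the reverse of elastin, and LPS 3 was far above the other LPS arrays. The difference was -3.26 ± 0.49, a 9.58-fold lower signal, and -3.69 without LPS 3.

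Asb11, a substrate receptor of Cullin 5 ubiquitin ligases known from the muscle lineage and from the endoplasmic reticulum, had the most negative difference of the 10 genes, in place 4. Its brighter probe (chrX:160896951-160897010 of mm9, plus strand) was at 0.02, -0.74, -1.90 and -0.47 after saline and at -4.64, -4.79, -2.75 and -4.43 after LPS. The order of the saline arrays was the same as for Dkk2, and LPS 3 again stood above the other LPS arrays. The difference was -3.38 ± 0.54 (-3.85 without LPS 3). Another probe, just downstream in the transcript, gave -3.10 ± 0.47 and was well above background on 3 of 4 LPS arrays. The third probe, for an alternative transcript, was not well above background on any array.

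Mamdc2, a secreted proteoglycan with MAM domains, was in place 5. It was at -0.02, -0.74, -1.03 and -0.28 after saline and at -4.80, -4.45, -2.27 and -3.82 after LPS. As with Dkk2 and Asb11, saline 3 was lowest among saline arrays and LPS 3 highest among LPS arrays. The difference was -3.32 ± 0.52 (-3.84 without LPS 3).

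Adamts16, a secreted metalloprotease of the ADAMTS family, was at -0.66, -0.76, -0.26 and -0.74 after saline and at -3.94, -3.33, -2.08 and -3.95 after LPS. Saline arrays lay within a narrow band and LPS 3 stood above the other LPS arrays. The difference was -2.72 ± 0.39 (-3.13 without LPS 3) on 1 of its 3 probes, the others being not well above background on any array.

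Tslp, a cytokine of epithelial and stromal cells that acts on dendritic cells and lymphocytes, was at -1.58, -0.98, -1.25 and -1.06 after saline and at -4.23, -4.50, -2.38 and -4.36 after LPS. Of the 4 LPS arrays, 3 lay within a narrow band and LPS 3 was far above them, yet still below every saline array. The difference was -2.65 ± 0.45 (-3.15 without LPS 3).

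**Figure D1:**
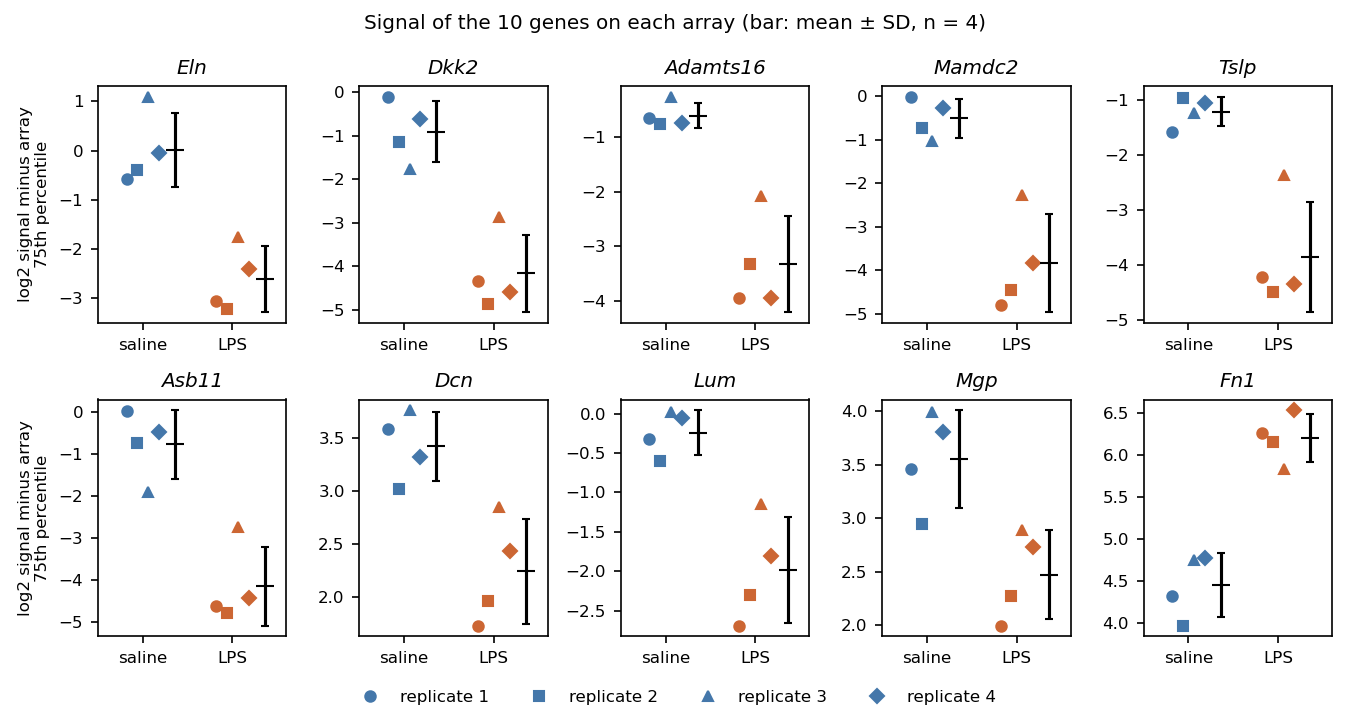
Log2 signal minus the array's 75th percentile (vertical axis, own range per panel) of each of the 10 genes on the 4 saline (blue) and 4 LPS (orange) arrays, with marker shape for the replicate and a bar for mean ± SD, n = 4. In 9 panels every LPS point lies below every saline point and LPS 3 (triangle) is the highest LPS point, while in the Fn1 panel all LPS points (5.84 to 6.54) lie above all saline points (3.97 to 4.77).

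Fibronectin went the other way. Its brightest probe was at 4.32, 3.97, 4.75 and 4.77 after saline and at 6.27, 6.16, 5.84 and 6.54 after LPS, so all LPS arrays were above all saline arrays and LPS 3 was the lowest of them. The difference was 1.75 ± 0.21, a 3.37-fold higher signal, and 1.87 without LPS 3.

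Of the 4 Fn1 probes, each well above background on all 8 arrays, 2 crossed an intron and so match spliced RNA. They are shown in full because they place the higher signal on the spliced message, one near the start of the transcript (chr1:71694694-71695800 of mm9, minus strand) and one near its end (chr1:71637422-71639659):
Fn1, near the start: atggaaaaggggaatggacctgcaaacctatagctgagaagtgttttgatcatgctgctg
Fn1, near the end: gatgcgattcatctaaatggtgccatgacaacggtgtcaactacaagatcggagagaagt

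The probe near the start was at -0.89, -1.06, -0.63 and -0.39 after saline and at 1.48, 1.44, 1.08 and 1.83 after LPS, a difference of 2.20 ± 0.19. The probe near the end gave 1.86 ± 0.22. A probe within 1 block of the genome at chr1:71650690-71650749, assigned to a shorter Ensembl transcript, was at -3.52, -3.77, -2.97 and -3.09 after saline and at -0.06, -0.01, -0.52 and 0.29 after LPS, a difference of 3.26 ± 0.22. The 4 probes thus went the same way and ranged from 1.75 to 3.26, a spread between probes that was not tested.

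**Figure D2:**
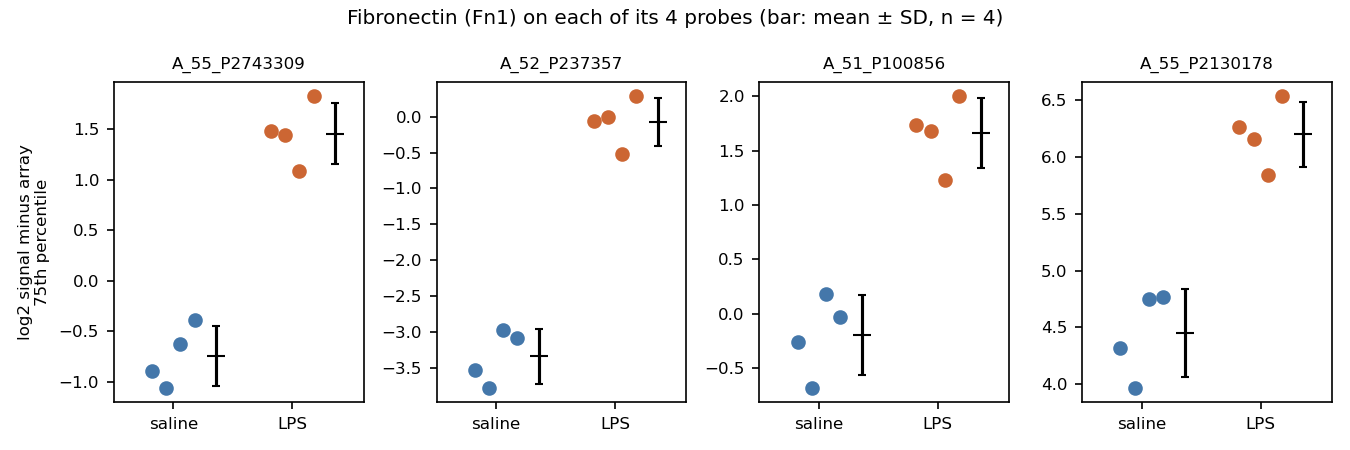
Log2 signal minus the array's 75th percentile (vertical axis, own range per panel) on each of the 4 fibronectin probes, ordered by their start in the transcript each was designed for, for saline (blue) and LPS (orange) arrays with mean ± SD, n = 4. On every probe the 4 LPS points lie above the 4 saline points, by a mean of 2.20, 3.26, 1.86 and 1.75 from left to right.

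How far the dim genes were down depended on how background was treated. After LPS the processed signals were 5.43 to 24.6 for Dkk2, 5.71 to 26.6 for Asb11, 5.53 to 37.2 for Mamdc2, 6.99 to 34.5 for Tslp and 10.1 to 42.4 for Adamts16, against 511 to 1287 for Dcn. With normexp background correction and an offset of 50 added to every signal, Dkk2 was at -1.14, Asb11 at -1.27, Mamdc2 at -1.24, Tslp at -0.90, Adamts16 at -1.10, Eln at -1.41 and Lum at -0.92, while Dcn (-1.14), Mgp (-1.06) and Fn1 (1.71) moved little. With an offset of 1 the same correction gave -2.58 for Dkk2, -2.75 for Asb11, -2.70 for Mamdc2, -2.12 for Tslp, -2.29 for Adamts16, -2.37 for Eln and -1.55 for Lum.

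The brightness of the arrays moved with several of these genes. With each array's median log2 signal as a covariate, Eln was at -1.60 ± 0.24, Lum at -1.03 ± 0.21, Dcn at -0.63 ± 0.21 and Mgp at -0.47 ± 0.19, whereas Dkk2 (-3.02 ± 0.71), Asb11 (-3.17 ± 0.78) and Fn1 (1.84 ± 0.30) stayed near their values. Adamts16 was then at -1.94, Tslp at -1.93 and Mamdc2 at -2.62. No member changed sign in any of 23 alternatives. Leaving out 1 array could not turn a sign, since the groups did not overlap, and some other alternatives leave the difference unchanged by construction. Median signal was 15.5 to 21.5 after saline and 11.7 to 17.3 after LPS, so this covariate is partly tied to treatment. Here and in the lists below it can also take up part of the treatment difference. The part of array brightness in these differences was not tested.

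**Figure D3:**
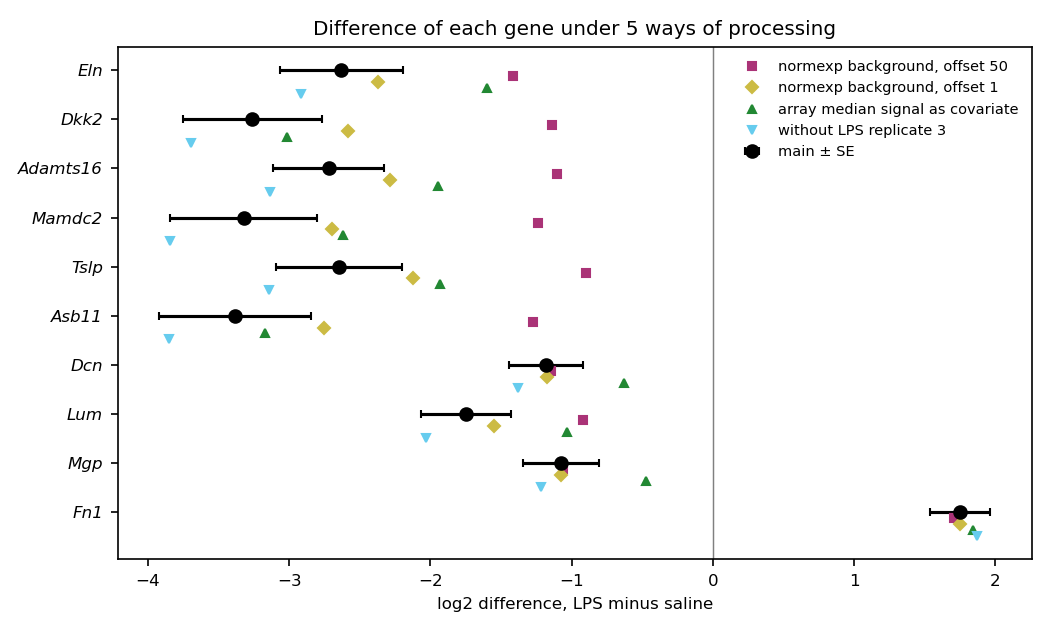
Log2 difference, LPS minus saline (horizontal axis), of each of the 10 genes (rows) in the main fit (black, ± SE) and in 4 alternatives (coloured markers). With the normexp offset of 50 the 7 genes with the lower signals sit between -1.41 and -0.90, and with the median signal as a covariate Eln, Lum, Dcn and Mgp lie nearest to 0 relative to the main fit.

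All arrays were on 1 slide, where each row held 2 arrays of each treatment and each column 1 of each. By column the difference of Eln was -2.47, -2.84, -2.85 and -2.36, a narrow range although its saline arrays spread widely. The differences of Dkk2 were -4.25, -3.72, -1.12 and -3.96 and those of Asb11 -4.66, -4.05, -0.86 and -3.96, both smallest in column 3, which held saline 3 and LPS 3. For Fn1 the columns gave 1.95, 2.20, 1.09 and 1.77. In rows 1 and 2 the differences were -3.07 and -2.19 for Eln, -3.79 and -2.73 for Dkk2, -3.67 and -3.09 for Asb11, and 1.82 and 1.69 for Fn1. With column as a block the SE of Eln went from 0.43 to 0.11 and that of Dkk2 from 0.49 to 0.57.

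The genes were chosen on the difference between treatments. Passing the threshold without overlap also depends on the spread within a treatment, so variation within treatments is not wholly independent of the choice. The deviations of the genes from the group mean, over 8 arrays, are described here by sets. These sets were read off the same correlations and have no sharp edge. Eln, Dcn, Lum and Mgp were correlated with each other at r = 0.78 to 0.92 over 6 pairs (0.65 to 0.95 without LPS 3). Dkk2, Asb11 and Mamdc2 were correlated at 0.87 to 0.97 over 3 pairs (0.65 to 0.93 without LPS 3).

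Between the 2 sets the 12 correlations ran from 0.00 to 0.82, and from -0.76 to 0.47 without LPS 3. The highest of them, Mamdc2 with Lum at 0.82, was above the lowest correlation within the first set, Eln with Dcn at 0.78. Adamts16 and Tslp belonged to neither set. Adamts16 correlated at 0.76 with Lum and 0.71 with Mamdc2, but at 0.19 and -0.39 without LPS 3. Tslp correlated with the same genes at 0.70 and 0.77, but at -0.22 and -0.42 without LPS 3. Adamts16 and Tslp correlated with each other at 0.83, but at -0.41 without LPS 3. The array saline 3 shows the split: Eln deviated by 1.07, Dcn by 0.34, Lum by 0.25 and Mgp by 0.44 there, while Dkk2 deviated by -0.85, Asb11 by -1.13 and Mamdc2 by -0.51. On LPS 3 all of them were above their group mean. Fn1 correlated with Mgp at 0.48 and with Lum at 0.04, or at 0.92 and 0.79 without LPS 3. These values describe 8 arrays that share a slide and a scaling, and no test was made of them.

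Against marker lists, the first set ran with fibroblast genes of the meninges (Col1a1, Col3a1, Foxc1 and others, 21 used here), but as closely with lists of other cell types. The correlation with the mean deviation of that list was 0.96 for Mgp, 0.92 for Dcn, 0.88 for Lum and 0.70 for Eln, and 0.94, 0.93, 0.95 and 0.61 without LPS 3. With mural cell markers, the genes of smooth muscle and pericytes, it was 0.98 for Lum, 0.93 for Mgp, 0.89 for Dcn and 0.88 for Eln. With choroid plexus markers it was 0.96 for Mgp, 0.95 for Lum, 0.86 for Dcn and 0.81 for Eln. The same 4 genes correlated with the array's median signal at 0.93 for Eln, 0.90 for Lum, 0.89 for Mgp and 0.84 for Dcn, and with endothelial markers at 0.98 for Mgp, so one source cannot be told apart from another here.

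Dkk2 and Asb11 did not follow the fibroblast list, with r = 0.34 and 0.31, or -0.01 and -0.05 without LPS 3. They ran more closely with a list of 15 genes of axon tract microglia (Gpnmb, Spp1, Igf1, Clec7a, Itgax and others), the amoeboid cells of early postnatal white matter. This list was chosen after the values were seen, and with the 12 general microglia and macrophage markers the correlation was only 0.09 for Dkk2 and 0.13 for Asb11 (0.52 and 0.56 without LPS 3). With the axon tract list it was 0.76 for Dkk2 and 0.79 for Asb11, or 0.93 and 0.95 without LPS 3, against -0.59 for Eln (-0.89 without LPS 3). Mamdc2 was at 0.64 with the fibroblast list and 0.48 with the axon tract list, or 0.55 and 0.59 without LPS 3. Other lists were closer to Mamdc2, such as genes around Tslp at 0.87 (0.36 without LPS 3) and partners of Mgp at 0.83 (0.37 without LPS 3). Without LPS 3 the highest were monocyte markers at 0.80 (0.12 with it) and fibronectin partners at 0.77 (0.60 with it). The name stromal is thus only the working label of the list, and for Dkk2 and Asb11 their variation within the treatments did not run with stromal markers. Their correlation with the array's median signal was 0.20 and 0.15, or -0.65 and -0.71 without LPS 3. Among the other lists Dkk2 was nearest to the partners of Mgp at 0.87 (0.64 without LPS 3) and to 5 skeletal muscle markers at 0.79 (0.89 without LPS 3). Asb11 was likewise at 0.86 (0.66 without LPS 3) and 0.73 (0.77 without LPS 3).

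Of the axon tract list, 11 of 15 genes (73.3%) were below 0 in the comparison with LPS, against 48.2% of all genes, with a median of -0.18. No test was made of this list, and 4 of the 11 lay between -0.18 and 0. Gpnmb, a transmembrane glycoprotein of phagocytic cells, differed by -2.86 ± 0.41, Itgax, the integrin CD11c, by -1.77 ± 0.32 and Igf1, the growth factor, by -1.55 ± 0.21. Spp1, osteopontin, differed by -1.36 ± 0.26 and Clec7a, the receptor dectin 1, by -1.30 ± 0.20. Lpl, lipoprotein lipase, was at -0.0023 ± 0.14, and the highest of the list was the galectin Lgals1 at 0.62 ± 0.14.

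**Figure D4:**
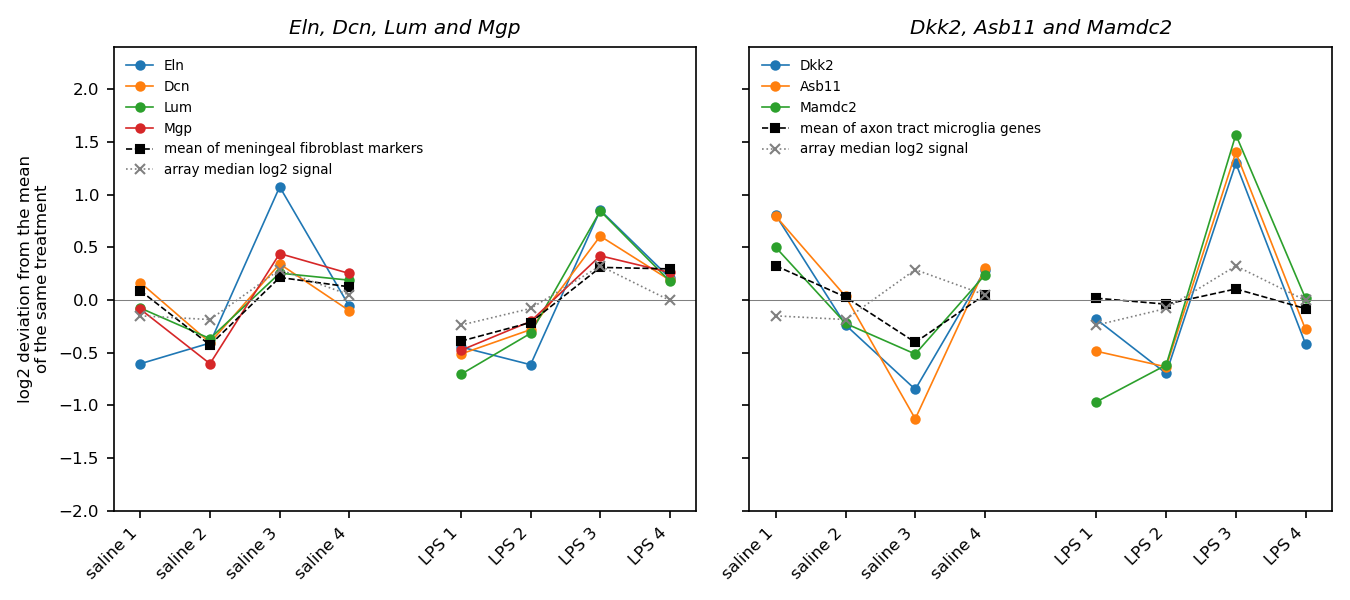
Log2 deviation of each gene from the mean of the same treatment (vertical axis) on the 4 saline and 4 LPS arrays (horizontal axis), for Eln, Dcn, Lum and Mgp on the left and Dkk2, Asb11 and Mamdc2 on the right. Black squares show the mean of a marker list and grey crosses the array's median log2 signal, and on saline 3 the left-hand genes lie above 0 (Eln at 1.07) while the right-hand genes lie below it (Asb11 at -1.13).

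The genes most like elastin by these deviations, out of 15658 genes, were Hip1r (r = 0.99), Myh11 (0.98), Bbs4 (0.98), Hspa1a (0.98) and Gm32391 (0.98), with a median r of -0.47 over all these genes. Myh11, the smooth muscle myosin heavy chain, fell by 1.40 ± 0.17 after LPS, while Hip1r differed by only -0.12 ± 0.17. Most like Dkk2 were Fam20c (0.97), a kinase of secreted proteins, Gal3st2 (0.97), Slc24a3 (0.97), Fam177a (0.96) and the tetraspanin Cd9 (0.96), with a median r of -0.09. Fam20c fell by 1.87 ± 0.26 and Cd9 by 1.42 ± 0.17 after LPS. Of the 15658 genes, 167 correlated with Eln and 60 with Dkk2 at more than 0.9, so the named genes are only the first of many.

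Promoter sequence was at hand for Dkk2 and Asb11, the pair most alike across arrays (r = 0.97). The 250 bases before the RefSeq start were read on GRCm38.p6, from chr3:132085042-132085291 on the plus strand for Dkk2 and chrX:164436744-164436993 on the plus strand for Asb11. Capitals mark matches to the motifs named below:
Dkk2 promoter: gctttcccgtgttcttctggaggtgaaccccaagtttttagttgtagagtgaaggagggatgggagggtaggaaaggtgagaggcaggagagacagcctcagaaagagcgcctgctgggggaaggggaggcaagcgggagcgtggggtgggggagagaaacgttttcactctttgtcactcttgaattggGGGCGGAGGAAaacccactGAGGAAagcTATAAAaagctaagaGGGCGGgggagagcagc
Asb11 promoter: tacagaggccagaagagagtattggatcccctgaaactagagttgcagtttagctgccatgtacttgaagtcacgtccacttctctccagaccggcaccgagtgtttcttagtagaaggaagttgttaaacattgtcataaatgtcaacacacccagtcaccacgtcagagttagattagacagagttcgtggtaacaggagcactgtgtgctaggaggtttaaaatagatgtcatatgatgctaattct

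Both strands were searched for the core promoter box written TATAAA, for the GC box of Sp factors written GGGCGG and for the core of the myeloid factor PU.1 written GAGGAA. The search also covered the AP-1 site written TGANTCA, the core of the Wnt effectors TCF and LEF written CTTTGA, the core of TEAD factors written GGAATG and the E-box written CACGTG. In the Dkk2 window the core promoter box began 32 bases before the start, GC boxes 60 and 17 bases before it and PU.1 cores 55 and 41 bases before it, the first of these overlapping a GC box. Over 32851 windows of the same length, 12.4% held the core promoter box, 32.7% a GC box, 23.3% a PU.1 core, 6.75% an AP-1 site, 13.8% a TCF core, 12.6% a TEAD core and 6.02% the E-box. The Asb11 window, with 43.6% GC against 55.6% for Dkk2, held none of these letters. The alike behaviour of this pair thus came with no shared match among the 7 motifs, which says only that these letters are not in that window.

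Partners of elastin were mostly lower too. Of 20 measured genes of elastic fibre assembly (of 21 listed), 14 fell and 2 rose, with a median of -1.12 against 0.02 over all genes. Fibulin 5, which carries tropoelastin to microfibrils, differed by -2.30 ± 0.37 (Fbln5, limma adjusted p = 0.00193), its relative fibulin 2 by -2.16 ± 0.23 (Fbln2, adjusted p = 0.000603) and the latent TGF-beta binding protein Ltbp4 by -1.88 ± 0.29 (adjusted p = 0.00161). Of the crosslinking enzymes, Loxl2 fell by 1.42 ± 0.27 and Lox by 1.03 ± 0.26. The microfibril glycoproteins Emilin2 (1.30 ± 0.12) and Emilin1 (0.61 ± 0.12) rose. With array median signal as a covariate 9 genes of this list were lower. All gene lists were drawn up with earlier results of these data known.

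Relatives of decorin and lumican were lower in 5 of 9 measured small leucine-rich proteoglycans, with a median of -0.92. Osteoglycin (Ogn) fell by 1.63 ± 0.35 and fibromodulin (Fmod) by 1.59 ± 0.25, whereas biglycan (Bgn) fell by only 0.28 ± 0.09. With the brightness covariate 2 of the list were lower, and without saline 4 or without LPS 2 there were 3.

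Secreted Wnt antagonists and receptors of Dkk proteins fell in 5 of 13 measured genes, with a median of -0.78 (2 genes with the brightness covariate). The inhibitor Wif1 fell by 2.14 ± 0.44, Frzb by 1.51 ± 0.34 and Dkk3 by 1.10 ± 0.18. Wif1 and Frzb were each well above background on all 4 saline arrays but on only 2 of 4 LPS arrays, so the size of their fall is uncertain. The co-receptor Lrp6 fell by 0.69 ± 0.10, while Lrp5 (0.09 ± 0.10) and Kremen1 (0.02 ± 0.08) did not pass. Of 9 measured Wnt target genes 5 fell, among them Sp5 (-1.16 ± 0.21) and Tcf7 (-0.94 ± 0.20), with a median of -0.57, and 2 with the brightness covariate.

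In the ADAMTS family of secreted proteases, 11 of 18 measured genes fell, with a median of -0.86, led by Adamts8 (-1.55 ± 0.14) and Adamts17 (-1.44 ± 0.19). With the brightness covariate, or without any one of saline 3, saline 4, LPS 1 and LPS 2, 7 of them were lower. Adamts16, at -2.72, lay below the lowest of these relatives, but it had been selected on this difference and was at -1.10 with the normexp offset of 50.

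Around Tslp, 3 of 9 measured genes rose and 3 fell. The cytokine receptor subunit Il4ra rose by 1.24 ± 0.14 and Il13ra1 by 0.42 ± 0.09. The subunits of the Tslp receptor differed in direction: Il7r fell by 1.11 ± 0.22 and Crlf2 rose by 0.34 ± 0.12. For Crlf2 the groups overlapped, and with quantile normalization it was at -0.0053. Among Asb proteins and their Cullin 5 partners, 12 of 16 measured genes did not pass, Asb10 fell by 1.58 ± 0.18, and the adaptors Eloc (0.68 ± 0.12) and Elob (0.65 ± 0.11) rose. Without LPS 3 the risen genes of this list went from 3 to 5. Genes of gamma-carboxylation and partners of Mgp fell in 3 of 7, with Bmp2, a ligand that Mgp binds, at -1.49 ± 0.24. The carboxylase Ggcx (0.20 ± 0.08) did not pass.

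Receptors and partners of fibronectin did not share 1 direction: 3 of 17 measured genes rose, 7 fell and 7 did not pass, with a median of -0.05. The alpha chain of the main fibronectin receptor, Itga5, rose by 0.66 ± 0.11 and the crosslinking transglutaminase Tgm2 by 1.26 ± 0.18. Thrombospondin 2 (Thbs2) fell by 1.07 ± 0.15 and the integrin chain Itga8 by 1.12 ± 0.38, though for Itga8 the groups overlapped. The largest fall of the list was Tnc at -1.73 ± 0.12, well above background on only 2 of 4 LPS arrays.

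Markers of other cell types that a CD11b bead fraction could hold differed in their direction, most of those of fibroblasts, mural cells, endothelium and astrocytes being lower after LPS and most of those of monocytes higher. Of 22 measured markers of meningeal fibroblasts (of 24), 21 of them well above background on all 8 arrays, 20 fell and 2 rose, with a median of -1.18. Their summed level, in multiples of the array's 75th percentile, was 166 to 263 after saline and 123 to 184 after LPS. Col3a1 fell by 1.61 ± 0.20, Col1a1 by 1.50 ± 0.23 and the transcription factor Tbx18 by 1.46 ± 0.16, while Slc13a3, a dicarboxylate transporter, rose 8-fold and Cped1 by 0.92 ± 0.15 on the log2 scale. With the brightness covariate 12 fell.

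Mural cell markers fell in 10 of 13, with a median of -1.16, among them the smooth muscle genes Cnn1 (-2.39 ± 0.41), Myl9 (-1.97 ± 0.17) and Tagln (-1.67 ± 0.16). Acta2, smooth muscle actin, rose by 0.49 ± 0.11 on its brightest probe but was at -1.35 with the mean of its probes. The summed level of the list was 78.2 to 83.0 after saline and 77.4 to 89.3 after LPS. Endothelial markers fell in 9 of 15, with Tek at -0.95 ± 0.17 and Flt1 at -0.88 ± 0.16, while Ly6c1 rose by 2.05 ± 0.19. With the brightness covariate 4 endothelial markers were lower. Their summed level was 42.4 to 55.7 after saline and 55.4 to 75.6 after LPS. Such sums follow the brightest genes of a list, so they do not measure how much of a cell type was present. Ly6c1 went from a mean of 2.58 to 4.63, the brightest endothelial marker after LPS. It was the only endothelial marker that rose, and its difference (2.05 ± 0.19) was close to that of the monocyte marker Ly6c2 (2.11 ± 0.20). Which cells gave the Ly6c1 signal, and with it the higher endothelial sum, was not tested. Acta2 on its brightest probe was the brightest mural marker, at 5.69 after saline and 6.18 after LPS. The fibroblast marker Slc13a3 went from 2.67 to 5.67. None of 10 choroid plexus markers passed limma at an adjusted or unadjusted p of 0.05, and their summed level ranged widely, from 134 to 369 after saline and from 68.0 to 339 after LPS, LPS 3 being the highest of the LPS arrays. Skeletal muscle markers fell in 4 of 8 and cartilage or bone markers in 2 of 6 (1 rose; with the covariate none was lower), and Myod1, Myog, Ckm, Acan and Runx2 of these lists were not among the genes measured.

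Astrocyte markers fell in 7 of 8, or 4 with the brightness covariate (summed level 26.6 to 34.4 after saline, 15.3 to 20.4 after LPS), oligodendrocyte markers in 4 of 8 (12.4 to 14.0, 10.8 to 12.1) and neuron markers in 1 of 8, with 1 rising and 4 lower without LPS 3 (11.6 to 16.1, 8.01 to 13.7). Microglia and macrophage markers, all 12 well above background on all arrays, were split: 4 rose, among them Itgam, the CD11b chain itself (0.66 ± 0.10), and 3 fell, led by the purinergic receptor P2ry12 (-1.55 ± 0.20). Their summed level was 2020 to 2490 after saline and 2120 to 2550 after LPS. Monocyte markers rose in 6 of 8, with Ly6c2 at 2.11 ± 0.20, and neutrophil markers in 2 of 10. The part of any of these cell types in the values of the 10 genes was not tested.

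**Figure D5:**
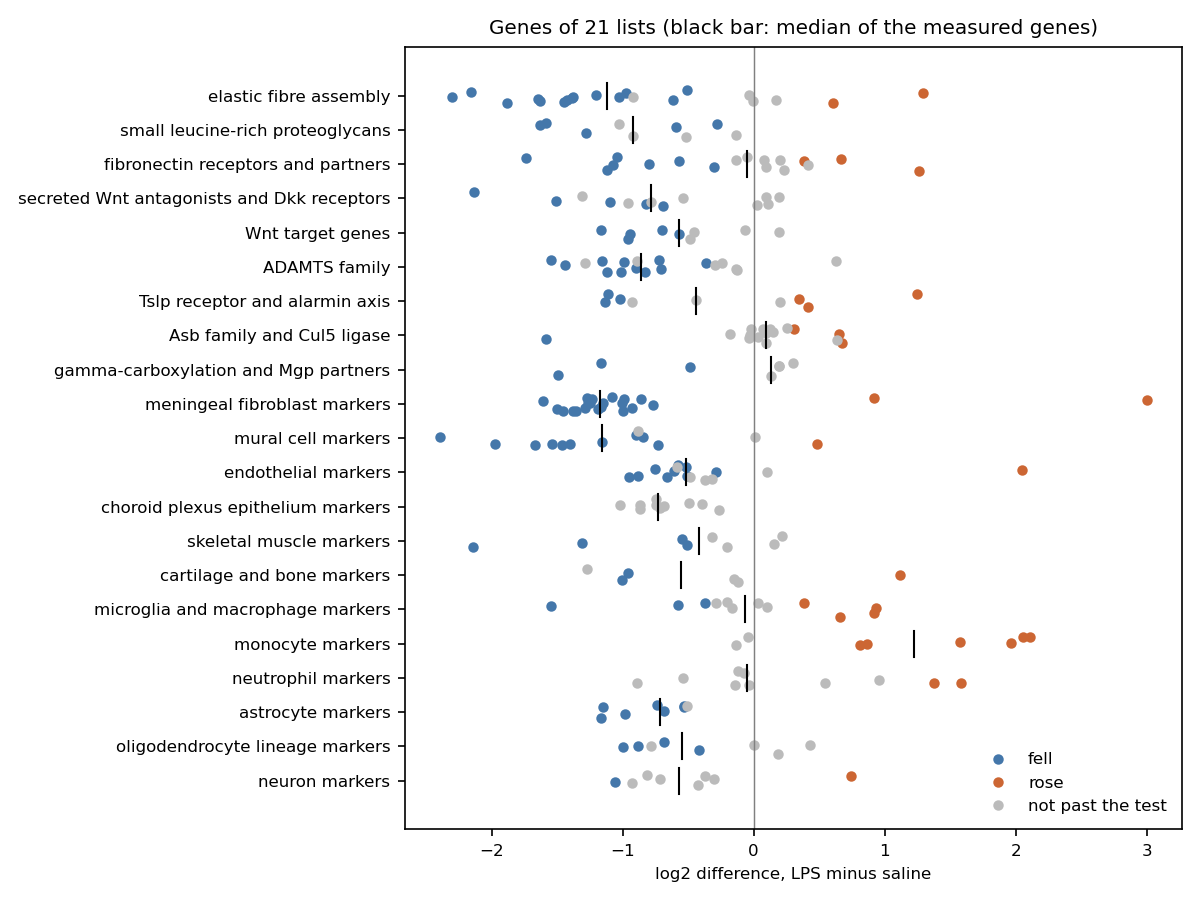
Log2 difference, LPS minus saline (horizontal axis), of each measured gene of 21 lists (rows; points, with random vertical offset), coloured by the limma call (blue fell, orange rose, grey not past the test), with a black bar at the median of each list. The medians of elastic fibre assembly (-1.12), meningeal fibroblast markers (-1.18) and mural cell markers (-1.16) lie furthest below 0, and that of monocyte markers (1.22) furthest above.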

How the data were processed

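RNA from 8 tubes of CD11b+ brain cells (50 ng each, Cy3) was measured on 1-colour Agilent arrays. Signals were read with Agilent Feature Extraction 12.0.3.1, per the submitters' processing notes. The deposited scanner files hold intensity values. The value table deposited by the authors is in log2 units and matched the scanner values after scaling to the 75th percentile and centring each probe on its median (r of 0.999 or more on every array). Its column medians were -0.07 to 0.08. Why the authors processed it so is not stated in the labels.

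Spots for controls and outlier spots were removed, no spot was saturated, and spots of a probe were averaged. The 75th percentile of each array was subtracted from its log2 processed signals. A probe had to be well above background on 4 or more of the 8 arrays (35494 probes), and each gene took its brightest probe. Names came from RefSeq accessions (35402 probes), symbols (9123) or synonyms (25), and 12049 kept the file's name. Groups were compared with limma 3.58.1 in R 4.3.3 over all genes with Benjamini-Hochberg adjustment. The fit was tested on simulated data with independent noise for each gene. That simulation held no brightness shift and no deviation shared by genes on an array, so it does not cover such features. The number of arrays limits the precision. Probe coordinates are those of the scanner files (mm9). The series mentions 2 mice per tube, so p-values measure the spread between pools. Probes of Tslp are not shown by sequence.

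The members and all gene lists were chosen with earlier results of these data known. Named from each list were up to 3 risen and 3 fallen genes with the largest differences among those past the test, or 2 bright ones where none passed, some of which are left out, and the 5 genes most like Eln and like Dkk2. Loxl2, Lox, Bgn, Lrp5, Lrp6, Kremen1 and the axon tract microglia genes shown were named after their values were seen. Alternatives covered scaling, background, filters, probes, variance model, array weights, slide position, array brightness, the deposited value table and omission of single arrays. Plots used matplotlib 3.10.9 and Python 3.11.15.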

Additional observations from a re-analysis of the deposited data

Results flagged for a closer look

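Of 20 groups of 4 arrays (the 10 genes in both treatments), 1 held an array far from the rest by Dixon's criterion. This was Tslp after LPS, where replicate 3 was at -2.38 against -4.50 to -4.23 on the other arrays. Chance alone would mark about 1 group in 20 if the groups were independent, but these groups share the same arrays. The next nearest to the criterion was Asb11 after LPS, also on replicate 3, which fell just short of it. Replicate 3 was the highest LPS array for every gene that was lower after LPS. The source of these values was not tested.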

How the results depend on the processing

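No pairing by replicate can be taken from the labels, which number no replicates. The only pairing at hand was by slide position, since every column of the slide carried 1 array of each treatment, and with column as a block 7489 genes were higher and 6131 lower, 60.5% of those tested. The 10 genes kept their direction in all 23 alternatives, ranging from -2.92 to -1.41 for Eln, -3.84 to -1.14 for Dkk2, -3.98 to -1.27 for Asb11 and 1.40 to 2.27 for Fn1. That direction was largely fixed by the choice of genes, whose groups did not overlap. Several alternatives, such as blocks for slide position, cannot change the difference. Genes past the test numbered 7475 to 14974 over the alternatives that kept all arrays (11104 in the main fit) and 8730 to 13262 when 1 array was left out. Scaling to each array's median moved the median difference of all genes to 0.24 and the lower calls from 4837 to 2619, and scaling over probes detected on all arrays moved that median to -0.13. The share of higher calls was 56.4% in the main fit, 72.8% and 40.1% under these scalings. With array median signal as a covariate, which was partly tied to treatment, higher calls went from 6267 to 4132. The lower genes then went from 14 to 9 for elastic fibre assembly and from 20 to 12 for meningeal fibroblast markers. When 1 array was left out these lists had 11 to 15 and 15 to 20 lower genes. Over all alternatives the lower genes ranged from 2 to 8 (5 in the main fit) for small proteoglycans, 2 to 7 (5) for Wnt antagonists, 2 to 6 (5) for Wnt targets, 7 to 14 (11) for ADAMTS, 1 to 5 (1) for Asb proteins, 4 to 12 (9) for endothelial, 4 to 8 (7) for astrocyte, 2 to 5 (4) for skeletal muscle, 1 to 7 (3) for microglia, 1 to 4 (1) for neuron, 0 to 4 (2) for cartilage and 0 to 3 (0) for choroid plexus markers. Fibronectin partners ranged from 2 to 6 higher (3). Signs turned for Crlf2 with quantile normalization (0.34 to -0.0053), for Ttr (-0.49 to 0.72) and Enpp2 (-0.39 to 0.83) with the covariate, and for Itgav (0.38 to -0.055) and Acta2 (0.49 to -1.35) with the mean of all probes. The causes were not tested. Signals near background limit the size of the differences of the dim genes.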
